A study of Homo sapiens with 40 samples.

Results

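The segment of chromosome 17 between 54 and 66 Mb (GRCh38), which covers bands 17q22 to 17q24, was described by its open chromatin in 2 breast cancer lines. Its members were chosen by position, with earlier results of these data known. The peaks of all 40 ATAC-seq lists were merged wherever they overlapped by 1 bp, regions found in at least 2 lists were kept, and those with a midpoint in the segment were taken. This gave 640 regions of 71600 in the genome. The other 3199 regions of chromosome 17 served as the comparison. Another 33 regions of the segment were in exactly 1 list and were left out, and 19 members were in exactly 2 lists. A region is called open in a library when its peak was listed there. A region that is not listed passed no peak threshold at a sequencing depth that is unknown, which does not show that it was closed.

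BT474 is a HER2-positive ductal breast carcinoma line sensitive to trastuzumab, and BT474R is a single resistant clone (clone 5) grown out of it under trastuzumab. Both lines were serum-starved and then sampled at baseline (0 h), or 1, 12 and 24 h after EGF, HRG or vehicle (water) control. Each of these 20 groups had 2 libraries, so that each line had 20. The libraries of a line are repeated samples of that line, and every p-value below measures the spread between these libraries only. BT474R differed from BT474 by its selection and by being 1 clone, which cannot be told apart here.

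ATAC-seq marks DNA that a transposase can reach, mostly promoters and enhancers. The long arm of chromosome 17 carries ERBB2, the gene of HER2, and farther out the 17q23 stretch that is often gained in HER2-positive and luminal tumors, with the kinase gene RPS6KB1, the phosphatase gene PPM1D, the microRNA gene MIR21 and the transcription factor gene TBX2. EGF binds EGFR and HRG (neuregulin) binds HER3 and HER4, and signals from these receptors reach the AP-1 factors FOS and JUN. Copy number was not measured in these libraries, and a peak can be higher with more copies of a locus or with more open chromatin per copy.

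The sequences of 8 regions that carry the findings below are printed as GRCh38 sequence from 100 bases before to 100 bases after the summit of the highest peak. They are the member with the highest rank, the leading member of each direction between the lines, the leading gained member of EGF in each line and of HRG in BT474R, and the 2 members that led the ligand comparisons of peak rank, of which the last pair was chosen after its values were seen. Capitals mark matches, on either strand, to the motifs of AP-1 (TGANTCA), TEAD (GGAATG) and GRHL (AACNNGTT). The other motifs searched for (those of CTCF, FOX, GATA, ETS and NRF1 factors) had no match in these windows.
widest and highest-ranking region, VMP1 and MIR21, chr17:59837721-59837921, + strand: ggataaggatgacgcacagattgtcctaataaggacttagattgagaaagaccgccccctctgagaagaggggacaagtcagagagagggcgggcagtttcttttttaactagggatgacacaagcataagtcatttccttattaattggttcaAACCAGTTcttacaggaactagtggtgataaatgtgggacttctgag
TEX14 intron, open in BT474R, chr17:58679409-58679609, + strand: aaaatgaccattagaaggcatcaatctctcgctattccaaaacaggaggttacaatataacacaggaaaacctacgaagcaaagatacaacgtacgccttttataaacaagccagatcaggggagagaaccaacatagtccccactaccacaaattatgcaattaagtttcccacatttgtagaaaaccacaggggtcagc
TBX4 side, open in BT474, chr17:61450430-61450630, + strand: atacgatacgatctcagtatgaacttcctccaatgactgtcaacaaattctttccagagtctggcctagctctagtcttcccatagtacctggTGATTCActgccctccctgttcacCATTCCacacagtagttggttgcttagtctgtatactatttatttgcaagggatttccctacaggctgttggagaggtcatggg
intergenic, EGF in BT474, chr17:55606484-55606684, + strand: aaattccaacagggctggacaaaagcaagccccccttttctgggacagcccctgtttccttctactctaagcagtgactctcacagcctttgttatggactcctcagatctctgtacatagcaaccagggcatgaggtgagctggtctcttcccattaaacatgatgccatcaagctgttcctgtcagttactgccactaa
TOM1L1 intron, EGF in BT474R, chr17:54948517-54948717, + strand: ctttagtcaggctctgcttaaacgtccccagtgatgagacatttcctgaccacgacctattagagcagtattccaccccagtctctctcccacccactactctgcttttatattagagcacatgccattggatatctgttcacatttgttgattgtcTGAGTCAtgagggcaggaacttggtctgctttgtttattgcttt
GNA13 intron, HRG in BT474R, chr17:65027441-65027641, + strand: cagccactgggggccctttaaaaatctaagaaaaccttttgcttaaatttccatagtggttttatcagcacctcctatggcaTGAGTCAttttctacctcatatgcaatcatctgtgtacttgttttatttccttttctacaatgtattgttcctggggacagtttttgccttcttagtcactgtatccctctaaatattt
VMP1 intron, EGF and HRG, chr17:59754672-59754872, + strand: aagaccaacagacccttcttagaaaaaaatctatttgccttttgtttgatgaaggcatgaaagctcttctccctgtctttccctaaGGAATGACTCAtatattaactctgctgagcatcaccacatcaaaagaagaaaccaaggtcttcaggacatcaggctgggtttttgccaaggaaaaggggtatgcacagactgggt
CUEDC1 intron, EGF and HRG, chr17:57948713-57948913, + strand: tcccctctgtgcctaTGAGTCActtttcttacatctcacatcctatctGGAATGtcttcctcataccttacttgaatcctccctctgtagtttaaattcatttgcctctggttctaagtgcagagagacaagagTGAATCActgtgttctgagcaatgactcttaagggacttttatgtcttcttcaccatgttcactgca
In the same windows of all 71600 regions the AP-1 motif was found in 16.3%, the TEAD motif in 13.9% and the GRHL motif in 5.62%. Among the 640 members these shares were 16.9%, 13.3% and 6.09%. AP-1 matches stood in 5 of the 8 windows, including both regions that led the ligand comparisons of rank, where the TEAD match of the VMP1 window overlapped the AP-1 match by 2 bases. A match is a description of the letters and not evidence of binding.

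Members of the segment were mostly far from transcript starts. A region within 1 kb of an annotated start (GENCODE 44) was called a promoter region, and 146 members (22.8%) were, against 38.3% of the regions on the rest of the chromosome. Introns held 314 members (49.1%), intergenic DNA 156 (24.4%) and exons 24. The median width of a member was 620 bp and its median GC content 48.3%, against 654 bp and 56.2% elsewhere on the chromosome. Across all 40 libraries 272 members were open (42.5%), close to the 40.8% of the rest of chromosome 17. At its left edge the nearest pair of regions inside began at 54077291 and 54085768, open in 19 and 7 BT474 libraries and in 14 and 20 BT474R libraries, and the nearest pair outside began at 53749233 and 53999302, of which the first was open in all 20 BT474 libraries and no BT474R library and the second the reverse. At the right edge the last pair inside was open in at most 7 libraries of a line, and the first pair outside began at 66177107 (8 libraries of each line) and 66275636 (20 and 18).

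The whole lists held 32479 to 56846 peaks, and the BT474R lists of 12 h were short, with 336 to 451 members open against 402 to 513 at the other times. Of the members open in either library of a group, 90.5% ± 1.51 were open in both in BT474 (mean and SD of 10 groups) and 88.3% ± 3.86 in BT474R. Between a library of each line this share averaged 67.6%. Promoters of 7 luminal genes outside the segment (KRT8, KRT18, KRT19, EPCAM, GATA3, FOXA1 and ERBB2) were open in all 40 libraries, while of the basal genes TP63 was open in 20 BT474 and 15 BT474R libraries, KRT5 in 7 and 14, and KRT14 had no promoter region. In the segment lie 14 genes that were listed beforehand for blood, endothelial, placental, pituitary, muscle, retinal and striatal cells. Of these 10 had no promoter region, among them PECAM1, CD79B, GH1 and SCN4A. The others were LPO, listed as myeloid, and RGS9, listed for retina and striatum, both open in all 40 libraries. ICAM2 was open in 20 BT474 and 11 BT474R libraries and MPO in 6 BT474R libraries.

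The first comparison asked whether the segment was more densely open than the rest of its chromosome. Open regions numbered 37.3 ± 1.34 per Mb in the BT474 libraries (SD, n = 20) against 33.1 ± 1.23 on the rest of chromosome 17, a ratio of 1.13. In BT474R they numbered 37.5 ± 4.10 against 29.2 ± 3.42, a ratio of 1.28. The rest of the chromosome includes the stretch from 22 to 27 Mb, which held no region. Its length lowers the density there and so raises every density ratio given here. The ratio was above 1 in all 20 libraries of each line (sign-flip permutation test, p = 1e-05 in both, the smallest that 100000 resamples give, adjusted p = 4.67e-05 over 14 tests of the segment as a whole). The excess was in distal regions. Regions farther than 1 kb from a start were 1.48 ± 0.0535 times as dense as elsewhere on the chromosome in BT474 and 1.73 ± 0.0684 times in BT474R, whereas promoter regions were sparser, at 0.684 ± 0.0166 and 0.734 ± 0.0198 times (permutation p = 1e-05 for each). Promoter regions made up 27.01% of the open members in BT474 and 25.7% in BT474R, against 44.5% and 44.9% elsewhere.

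Peak rank was the percentile of the peak's area of significance (column 7 of the lists) among all peaks of its list. Within each class the segment ranked higher. An area also depends on width, and members were wider within each class. The median width was 1179 bp for promoter regions of the segment against 984 bp elsewhere on the chromosome. For distal regions it was 576.5 bp against 526 bp. The part of width in these ranks was not tested. Open promoter regions of the segment had a mean percentile of 71.2 ± 1.80 in BT474 and 72.7 ± 1.29 in BT474R. This was 5.68 ± 1.83 and 8.34 ± 2.05 points above the promoter regions of the rest of the chromosome. Its distal regions stood 1.89 ± 0.591 and 2.18 ± 0.935 points above (permutation p = 1e-05 for each of these 4 differences, positive in all 20 libraries). With both classes pooled the differences were smaller and changed sign between the lines. The pooled mean was 0.43 points lower than elsewhere in BT474 (54.6 against 54.98, permutation p = 0.0128, adjusted p = 0.0360) and 0.46 points higher in BT474R (55.2 against 54.8, permutation p = 0.0339, adjusted p = 0.0791). The BT474 value turned to +0.67 (permutation p = 0.00093) when the 38 to 41 Mb stretch with ERBB2 was left out of the comparison, and the BT474R value turned to -0.86 for medians.

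The lines differed in how much of the chromosome's open chromatin lay in the segment. The share was 16.0% ± 0.324 in BT474, from 15.5% to 16.6%, and 17.8% ± 0.384 in BT474R, from 17.2% to 18.6%. The lowest BT474R library lay above the highest BT474 library. The difference was 1.82 percentage points (permutation within the 10 conditions, p = 1e-05, adjusted p = 4.67e-05), and BT474R was higher in each of the 10 conditions, by 1.40 points for HRG at 24 h up to 2.72 points for HRG at 12 h. Open members numbered about the same in both lines, 447.5 ± 16.1 in BT474 and 449.8 ± 49.2 in BT474R, while the rest of the chromosome had 2347 ± 87.0 against 2074 ± 242. On these means the larger share went with fewer open regions elsewhere in BT474R, but this differed by condition. In the 1 h controls, 502 and 496 members were open in BT474R against 439 and 426 in BT474. Elsewhere on the chromosome 2345 and 2323 regions were open against 2280 and 2286. The 12 h controls of BT474R had fewer of both, with 336 and 401 members against 441 and 431, and 1564 and 1826 regions elsewhere against 2246 and 2247. The larger share held for distal regions (20.1% against 22.7%) and in smaller measure for promoter regions (10.4% against 11.05%, permutation p = 1e-05 for each). The mean rank relative to the rest of the chromosome was 0.885 points higher in BT474R (permutation p = 0.00088, adjusted p = 0.00308), with 2.66 points in promoter regions (p = 0.00018) and 0.285 points in distal regions (p = 0.254).

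**Figure D1:**
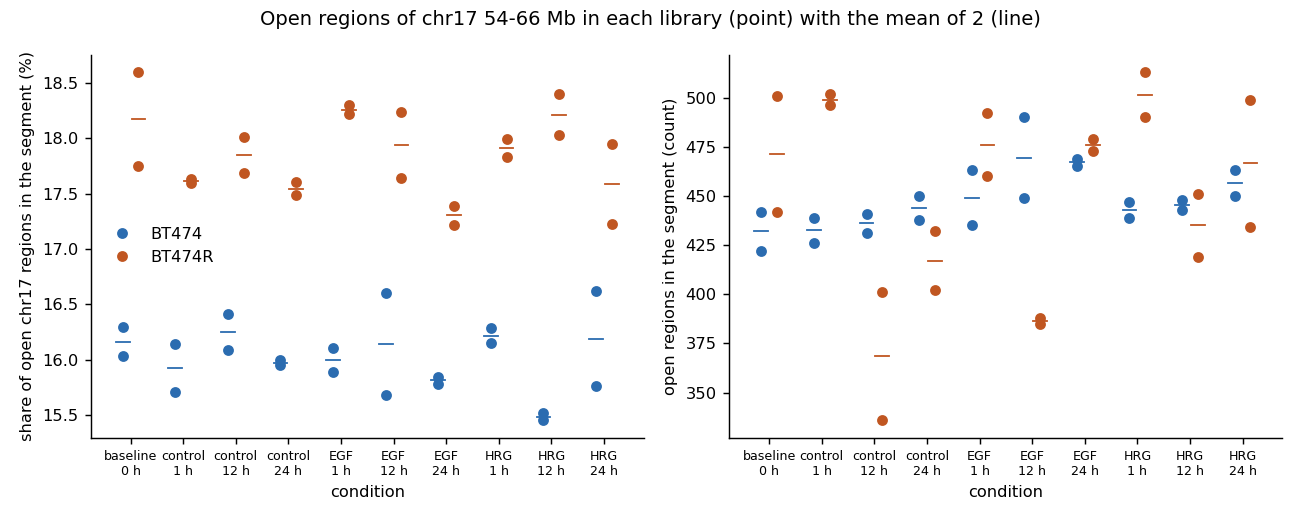
Share of the open regions of chromosome 17 that lie in the segment (left, percent) and number of open members (right, count) by condition, with each library a point, the mean of the 2 libraries a line, BT474 in blue and BT474R in orange. Every BT474R library lies above every BT474 library in the share, whereas the counts overlap and are lowest in BT474R at 12 h.

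The lines did not differ evenly along the segment. In 1 Mb bins, every BT474R library had a larger share of the chromosome's open regions than every BT474 library in 3 of 12 bins, at 55, 58 and 59 Mb, and none of the 12 bins showed the reverse. Over the whole chromosome 3 of 79 bins (3.80%) were of the first kind, all of them in the segment, and 7 (8.86%) of the second. The bin from 59 to 60 Mb, with PRR11, CLTC, VMP1 and RPS6KB1, was the densest, with 106 members. It held 70.0 ± 4.17 open regions in BT474 and 81.9 ± 6.75 in BT474R, 2.51% and 3.26% of the chromosome's total. Its 50 regions open in all 40 libraries had a mean percentile, among the regions open in all libraries, of 58.6 in BT474 and 67.9 in BT474R, with no overlap between the libraries of the lines. By this rank 2 of the 12 bins of the segment had every BT474R library above every BT474 library, and 0 the reverse. On the rest of the chromosome 3 of 65 bins were of the first kind and 12 of the second. In the bins from 60 to 63 Mb, which hold most of BCAS3 and the genes from TBX2 to TLK2, more members were open in BT474, with 41.4 ± 1.79 against 36.1 ± 3.82 in the first, 26.9 ± 1.14 against 21.0 ± 3.34 in the next and 21.3 ± 2.15 against 14.95 ± 4.03 in the last. These last values are counts and not shares. BT474R had fewer open regions on the chromosome on average, so the contrasts in share are smaller. Neighboring bins are described here without a test.

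**Figure D2:**
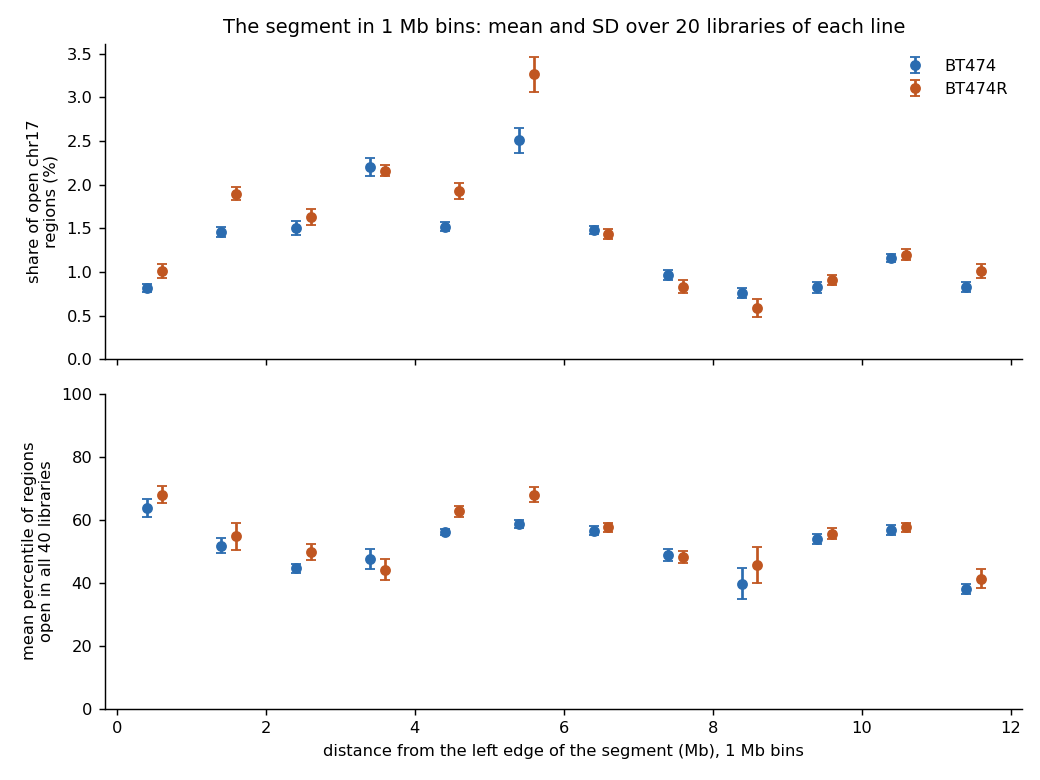
Mean and SD over the 20 libraries of each line, in 1 Mb bins by distance from the left edge of the segment, of the share of open chromosome 17 regions (top, percent) and of the mean percentile of regions open in all 40 libraries (bottom). The bin at 5 to 6 Mb has the largest share, 2.51% in BT474 (blue) and 3.26% in BT474R (orange).

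Single members were compared between the lines by the number of libraries in which they were open (Fisher's exact test, Benjamini-Hochberg adjustment over all 71600 regions). In BT474R 91 members (14.2%) were open more often and 83 (12.97%) less often. In the genome 11.0% and 18.4% of regions were called in these directions, and on the rest of the chromosome 8.22% and 19.0%. Without the 12 h libraries, where BT474R lists were short, the second count fell to 51. With column 7 of at least 400 the first count was 51, and with equally long lists the second was 46. Open only in BT474R were 87 members (13.6%) and only in BT474 58 (9.06%), against 14.0% and 13.9% of all regions. Among these, 10 (1.56%) were open in all 20 BT474R libraries and in no BT474 library, and 15 (2.34%) were the reverse, against 0.957% and 2.52% of all regions. The calls in favor of BT474R were clustered, with 17, 13 and 22 of them in the bins at 55, 58 and 59 Mb. Those in favor of BT474 were 9, 10 and 9 in the 3 bins from 60 to 63 Mb, where 2, 2 and 1 went the other way. GRHL motifs stood in 15.4% of the 91 members and FOX motifs also in 15.4%, against 6.43% and 9.77% of all regions called in that direction. In the 83 members open less often these shares were 8.43% and 3.61%, against 5.52% and 8.91% of all regions called that way. These 2 of the motifs searched for are given without a test.

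**Figure D3:**
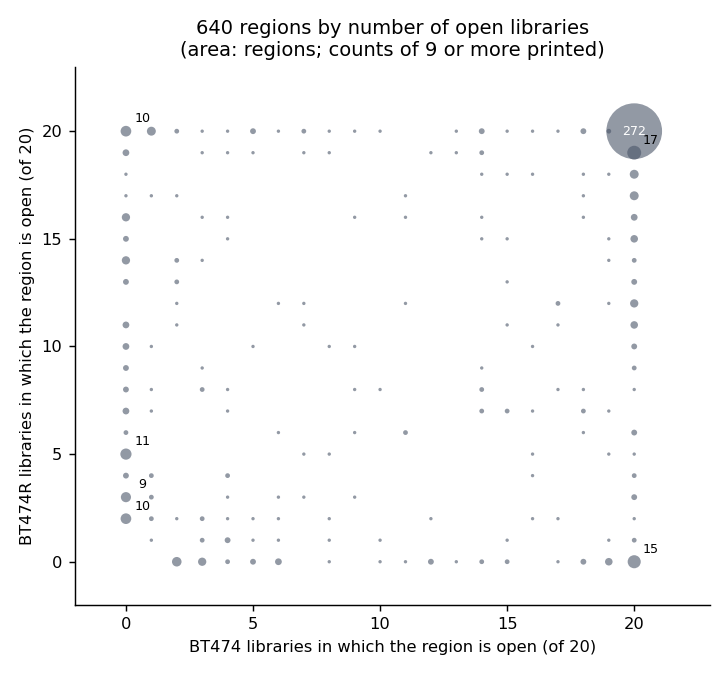
The 640 members by the number of BT474 libraries (horizontal, of 20) and BT474R libraries (vertical, of 20) in which each was open, with the area of a point giving the number of members. In the upper right corner 272 were open everywhere, in the upper left corner 10 were open in all BT474R and no BT474 libraries, and in the lower right corner 15 the reverse.

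The strongest BT474R-only member was a 1744 bp region in an intron of TEX14, a gene of male germ cells, which also overlaps the gene IGBP1C (chr17:58678926-58680669). It was not listed in any of the 20 BT474 libraries. In BT474R its percentile ran from 97.7 over a median of 98.7 to 99.1, so that it belonged to the highest-ranking peaks of every list there. A region in an intron of PPM1E, a phosphatase gene (chr17:58840853-58841684), likewise went from no BT474 library to a percentile of 53.8 to 81.3 (median 74.1) in all 20 BT474R libraries. The other 6 of the 8 leading members of this direction lay at BCAS3, MMD, MSI2, DYNLL2, RGS9 and near ACE, with mean percentiles of 35.8 to 45.7 in BT474R. Each was listed in all 20 BT474R libraries and in no BT474 library.

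By rank, members were compared within the set of regions open in at least 50% of the libraries (limma, Benjamini-Hochberg adjustment over 46799 regions), in which 454 members could be tested. A region enters that set partly through the line where it is high, so its counts are a description. In BT474R 222 ranked higher and 134 lower, 48.9% and 29.5%, against 41.3% and 44.2% of all regions tested and 32.0% and 51.1% on the rest of the chromosome. The 272 members open in all 40 libraries are free of that selection, and there 137 (50.4%) ranked higher and 81 (29.8%) lower, against 41.5% and 42.5% of all such regions. The median difference of the 454 members was 1.25 points, against -0.33 for all regions tested and -1.89 for the rest of the chromosome. On the percentile of the whole list these medians were -0.666, -3.89 and -5.75, so that the sign of the first turned, and 203 members were called lower. On a log2 scale of column 7, the median of the members open everywhere was -0.0903, against -0.183 for all such regions and -0.276 for the rest of the chromosome, and 97 were called higher.

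Regions near TOM1L1, a gene of vesicle sorting and SRC kinase signaling, moved both ways. An intergenic region 42259 bp from its start (chr17:54856819-54857712) was listed in 1 BT474 library and in all 20 of BT474R, with percentiles of 72.4 to 85.1 (Fisher's exact test, adjusted p = 5.78e-09). A region in a non-coding gene farther off (chr17:54635264-54636411) rose by 77.0 ± 1.39 points (SE, limma), from a median percentile of 18.3 in the 18 BT474 libraries that listed it to 94.5. Another (chr17:54806947-54807752) was open in all 40 libraries and fell by 32.42 ± 1.07 points. Upstream of YPEL2, a region 4270 bp from the start (chr17:59327023-59328396) fell. Its percentile was 86.8 to 94.95 (median 93.7) in BT474, and in BT474R it was listed in 11 libraries at 0.671 to 32.7, a difference of -75.0 ± 1.10 points. The neighboring YPEL2 promoter region, which begins 680 bp to its right in the merged set, kept its place among the highest members.

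BCAS3, a gene of cell migration that is broken or gained in breast tumors, held several of the members lost in BT474R. Its intron region at chr17:61219243-61219849 had percentiles of 57.5 to 74.9 in BT474 and was listed in 6 BT474R libraries, at 3.21 to 15.9 (Fisher's exact test, adjusted p = 2.60e-05). The region at chr17:61201132-61201687 had 55.2 to 75.2 in BT474 and was listed in 3 BT474R libraries, at 7.57 to 13.6 (Fisher's exact test, adjusted p = 3.19e-07). The one at chr17:60920152-60920805, listed in 20 and 16 libraries, fell by 32.69 ± 1.03 points. Another at chr17:61149868-61150404 went from a percentile of 28.1 to 58.7 in all 20 BT474 libraries to no BT474R library. The leading BT474-only member was intergenic, 1874 bp from a start of TBX4, a limb and lung transcription factor gene whose promoter had no region (chr17:61450276-61450665), with percentiles of 42.1 to 56.2 in BT474. Members of BCAS3 also went the other way, as at chr17:61053466-61053878, open in all 20 BT474R libraries at 25.3 to 60.9 and in none of BT474. The 16 leading members of the presence test kept their direction and call under every alternative that gave a value and without any single library. They were picked for the smallest p of this same test, each open in all 20 libraries of 1 line and in none of the other. Leaving out 1 library could therefore not undo their calls. The rank differences in points of this and the preceding paragraph, given only for regions listed in at least 50% of the libraries of each line, passed the threshold of 0.05 for the adjusted p (limma).

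The promoters of 18 of the 23 listed 17q23 genes were among the highest-ranking peaks in both lines. Each of the 23 genes listed for this stretch had a promoter region (the region within 1 kb of any of its starts with the highest mean percentile), and 22 of them were open in all 40 libraries. The 18 genes from TRIM37 to BCAS3, which share 15 regions, had mean percentiles of 96.2 to 99.996 in BT474 and 97.3 to 99.993 in BT474R. The 5 genes that follow, TBX2, BRIP1, INTS2, MED13 and TLK2, had 47.6 to 93.0 and 3.87 to 90.6. In the bins from 59 to 61 Mb, 16 of 19 coding promoter regions open in all libraries (84.2%) had a mean percentile above 95 in each line, against 22.95% and 19.7% in the other bins of the segment, 21.6% and 18.2% on the rest of the chromosome and 16.2% and 12.8% in the genome. These bins were picked after the values were seen and are given without a test. Copy number may differ along the segment and its part in these ranks was not tested.

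**Figure D4:**
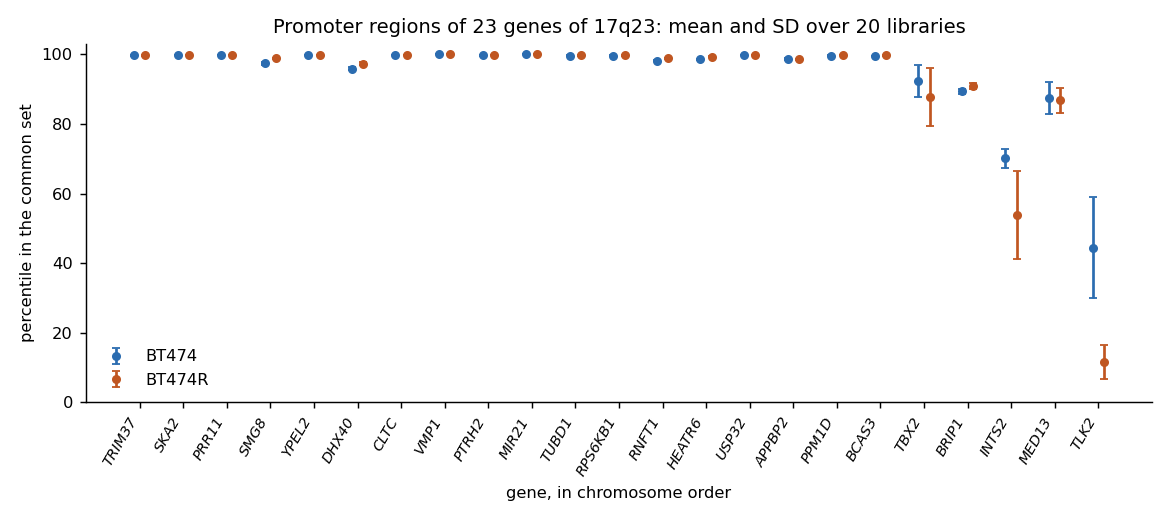
Mean percentile within the regions open in at least 50% of the libraries, with SD over the 20 libraries of BT474 (blue) and of BT474R (orange), of the promoter regions of 23 genes of 17q23 in chromosome order. The 18 genes from TRIM37 to BCAS3 stand at 95.9 or higher in both lines, and TBX2 to TLK2 stand lower, with TLK2 at 44.5 in BT474 and 11.5 in BT474R.

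The highest and widest member, 13659 bp (chr17:59836000-59849658), covered the 3′ part of VMP1, an autophagy gene, and the whole of MIR21. Its percentile averaged 99.996 in BT474 and 99.993 in BT474R, a difference of -0.002 ± 0.048 points (limma, adjusted p = 0.969). On the log2 scale its area was 5.88 above the library median in BT474 and 5.85 in BT474R. The next highest were the promoter regions of YPEL2 and of SKA2 with PRR11, followed by TOM1L1, USP32, MTMR4, CLTC, PTRH2 with VMP1, NOG and TRIM37, all open in all 40 libraries. RPS6KB1 (S6 kinase) and PPM1D (a p53 pathway phosphatase) stood at 99.7 in both lines.

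Of the 23 promoters 6 ranked higher in BT474R and 3 lower (limma, adjusted p under 0.05). Of all coding promoter regions tested in the segment 32.0% were higher and 33.0% lower, against 31.6% and 52.1% in the genome. SMG8, a gene of nonsense-mediated decay, rose from 97.4 ± 0.330 to 98.9 ± 0.208 (SD, n = 20), and HEATR6 rose from 98.6 ± 0.150 to 99.4 ± 0.111. DHX40, RNFT1, BCAS3 and BRIP1 also rose, by 0.19 to 1.54 points. On the log2 scale of column 7 the median of all regions was itself -0.183. There DHX40, RNFT1 and BRIP1 were lower in BT474R, though each by less than that median, and BCAS3 had no call (0.0141, adjusted p = 0.409, limma). BRIP1 also had none on the percentile of the whole list (0.489 points, adjusted p = 0.177, limma). TLK2, a chromatin kinase gene, fell from 44.5 ± 14.6 to 11.5 ± 4.88 and its region, tested by rank through BT474, was listed in 20 BT474 and 6 BT474R libraries (Fisher's exact test, adjusted p = 2.60e-05). INTS2, of the Integrator complex, fell from 70.2 ± 2.77 to 53.8 ± 12.7. TBX2 fell by 4.71 ± 1.20 points (SE), a value that came to -0.876 with an adjusted p of 0.542 without the 12 h libraries.

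The other gene lists of the segment gave similar counts. Some genes stand in several lists. Among 7 genes of DNA repair and checkpoints 3 rose and 2 fell, with RAD51C, a homologous recombination gene, at 92.2 ± 0.495 in BT474 and 94.4 ± 0.831 in BT474R. Among 7 kinase signaling genes none rose and 3 fell (AKAP1, TANC2 and TLK2, of which TANC2 was listed in 17 BT474 and 8 BT474R libraries and so, like TLK2, was tested by rank through BT474). In the Wnt and BMP list of 5, RNF43, a ubiquitin ligase that removes Wnt receptors, rose by 4.40 ± 0.401 points to 92.9 and GNA13 fell by 0.193 points, while NOG stood at 99.7 and 99.8 and AXIN2 at 17.4 and 16.0 without a call. Of 9 genes of RNA processing 3 rose and 4 fell. Of 4 developmental transcription factor genes VEZF1 and TBX2 fell and HLF rose, VEZF1 from 93.8 ± 1.44 to 88.2 ± 3.70, and TBX4 had no promoter region. Of 4 vesicle and autophagy genes PCTP rose. Of 7 ubiquitin genes RNF43 rose and TRIM25 and MARCHF10 fell, the last from 48.4 ± 12.4 to 32.1 ± 10.7. CA4, a carbonic anhydrase gene, rose from 35.2 ± 12.2 to 48.3 ± 8.73, a call that was lost on the percentile of the whole list (6.11 points, adjusted p = 0.117), as was that of HLF (0.261 points, adjusted p = 0.783, limma). Medians of the lists lay between -4.71 and 1.34 points except for CA4 alone, against -1.69 for all coding promoters tested. On the log2 scale of column 7, where the median of all regions was itself -0.183, RAD51C, HLF, PCTP, MSI2 and SUPT4H1 were lower in BT474R. GNA13 and HLF lost their calls without the 12 h libraries.

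No ligand effect on the segment as a whole passed the threshold as tested first. Its share of open regions on the chromosome changed by -0.066 points with EGF and -0.085 points with HRG in BT474 (exact permutation within the 3 time points, p = 0.713 for each) and by 0.164 points (p = 0.333) and 0.235 points (p = 0.148) in BT474R. Mean rank against the rest of the chromosome changed by 0.431 and -0.019 points in BT474 (exact p = 0.278 and 0.972) and by -0.109 and -0.617 points in BT474R (exact p = 0.769 and 0.167). The smallest p this design allows is 0.00926, and a miss does not show that the arms were alike. Some other settings passed before adjustment, as for EGF in BT474R, whose rank effect was 1.038 with column 7 of at least 400 (exact p = 0.0185) and -0.813 in distal regions (exact p = 0.0370). EGF in BT474 gave 2.257 points for medians (exact p = 0.0278), and the share effect of HRG in BT474R was 0.323 points with peaks trimmed to 400 bp (exact p = 0.0278) and up to 0.355 points with 1 library left out (exact p = 0.00926). The ligand effects did not differ past the threshold between the lines either (exact p = 0.230 to 0.357). EGF and HRG were compared with the same controls.

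Single members did respond. By rank, a member was tested when open in at least 50% of the libraries of its line. Ligand libraries outnumber the others, so a region listed only with the ligands could enter that set. One listed only in control and baseline libraries could not, so the counts of raised and lowered members are a description. By rank, EGF raised 56 members of 445 tested in BT474 (12.6%, against 12.3% of all regions tested) and lowered 33 (7.42% against 6.78%). HRG raised 65 (14.6% against 14.3%) and lowered 59 (13.3% against 11.8%). In BT474R, of 456 tested, EGF raised 69 (15.1% against 12.9%) and lowered 52 (11.4% against 11.2%), and HRG raised 18 (3.95% against 3.53%) and lowered 14 (3.07% against 1.27%). All but the last of these shares lay near those of all regions. The last rests on 14 members, and without the 12 h libraries HRG in BT474R raised 1 and lowered 0. Between the lines, which have separate controls, 34 members were raised by EGF in both, 60.7% of those in BT474 and 49.3% of those in BT474R, against 50.2% and 52.7% for all regions. For HRG 11 were raised in both, 16.9% and 61.1%, against 15.2% and 67.4%. Lowered by EGF in both lines were 11 members, 33.3% and 21.2%, against 18.9% and 12.5% for all regions, and by HRG 6, or 10.2% and 42.9%, against 3.52% and 35.98%. These overlaps are described without a test.

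The raised members held AP-1 motifs more often than the others. The motif stood within 100 bases of the summit in 53.6% of those raised by EGF and 49.2% of those raised by HRG in BT474, and in 55.1% and 66.7% in BT474R. Of the lowered members it stood in 6.06%, 5.08%, 3.85% and 0 of 14, and of the tested members without a call in 8.66% to 13.4%. Among all regions raised in the genome the shares were 51.2%, 52.5%, 54.7% and 58.9%, so the segment was like the genome in this. Among the lowered members (n = 33, 59, 52 and 14) GATA motifs stood in 21.2%, 16.9%, 17.3% and 28.6%. Of all regions lowered they stood in 12.5%, 13.02%, 9.94% and 13.1%. GRHL motifs stood in 9.09%, 8.47%, 15.4% and 21.4% of the lowered members, against 5.77%, 7.31%, 9.74% and 9.35% of all regions lowered. These shares were not tested.

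A region in an intron of VMP1, 19434 bp from the nearest coding start (chr17:59754455-59755187), led the raised members in 2 of the 4 comparisons and was second in the rest by p. In the BT474 controls its percentile was 24.0 and 22.2 at 1 h, 3.8 in the only library that listed it at 12 h, and 4.4 in the only such library at 24 h. With EGF it was 59.6 and 55.5, 46.2 and 58.6, and 50.0 and 50.6 at these times, and with HRG 61.01 and 61.7, 57.6 and 56.0, and 55.5 and 59.5. In the BT474R controls it was 23.5 and 32.5 at 1 h, listed in neither library at 12 h and at 17.7 in 1 library at 24 h. With EGF it was 64.5 and 61.9, 65.4 and 63.2, and 78.9 and 77.4, and with HRG 58.8 and 54.8, 50.7 and 48.2, and 52.8 and 42.6. No ligand library overlapped a control library in either line, and baseline libraries lay at 11.5 to 23.1. Within the common set the differences were 38.1 ± 2.36 and 44.9 ± 2.36 points for EGF and HRG in BT474 and 54.7 ± 3.64 and 34.2 ± 3.64 points in BT474R (SE, limma, adjusted p = 0.00032 for the last). That last call was lost without the 12 h libraries (30.8 points, adjusted p = 0.0642).

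In an intron of CUEDC1, a gene with a ubiquitin-binding domain, 2 regions rose. The smaller (chr17:57948254-57949482) was open in all 40 libraries. Its control percentiles in BT474 were 71.3 and 71.2 at 1 h, 62.4 and 64.96 at 12 h and 63.0 and 60.3 at 24 h, and all 12 ligand libraries lay between 79.6 and 85.3. Its differences were 14.5 ± 0.839 points for EGF and 18.4 ± 0.839 points for HRG. In BT474R the controls ran from 51.8 to 78.2, the EGF libraries from 80.7 to 92.3 and the HRG libraries from 73.4 to 80.7, so that HRG overlapped the controls. The differences there were 19.2 ± 1.39 and 10.7 ± 1.39 points, the latter without a call when the 12 h libraries were left out. The larger region (chr17:57939582-57941784) rose by 2.09 ± 0.169 points with EGF in BT474, from control values of 95.7 to 96.8 to EGF values of 97.5 to 99.1.

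The lowered members included another BCAS3 intron region (chr17:61230948-61231820), listed in no BT474R library. In BT474 its controls were 63.6 and 61.6 at 1 h, 60.6 and 58.8 at 12 h and 61.2 and 63.7 at 24 h. With EGF it was 56.4 and 43.1, 48.6 and 55.6, and at 24 h 6.4 in the only library that listed it. With HRG it was 52.5 and 45.6, 44.5 and 13.8, and 1.8 in the only such library at 24 h. It was lowest at 24 h with each ligand and stayed level in the controls. The differences over the 3 times were -27.8 ± 4.00 points for EGF and -34.4 ± 4.00 points for HRG (limma, adjusted p under 0.05). In an intron of the non-coding gene LINC01476 (chr17:59456815-59457703) HRG lowered rank by 12.02 ± 1.25 points in BT474 and EGF lowered it by 23.84 ± 2.45 points in BT474R, where the EGF libraries of 12 and 24 h lay at 25.6 to 36.6 against 59.9 to 64.8 in the controls of those times.

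**Figure D5:**
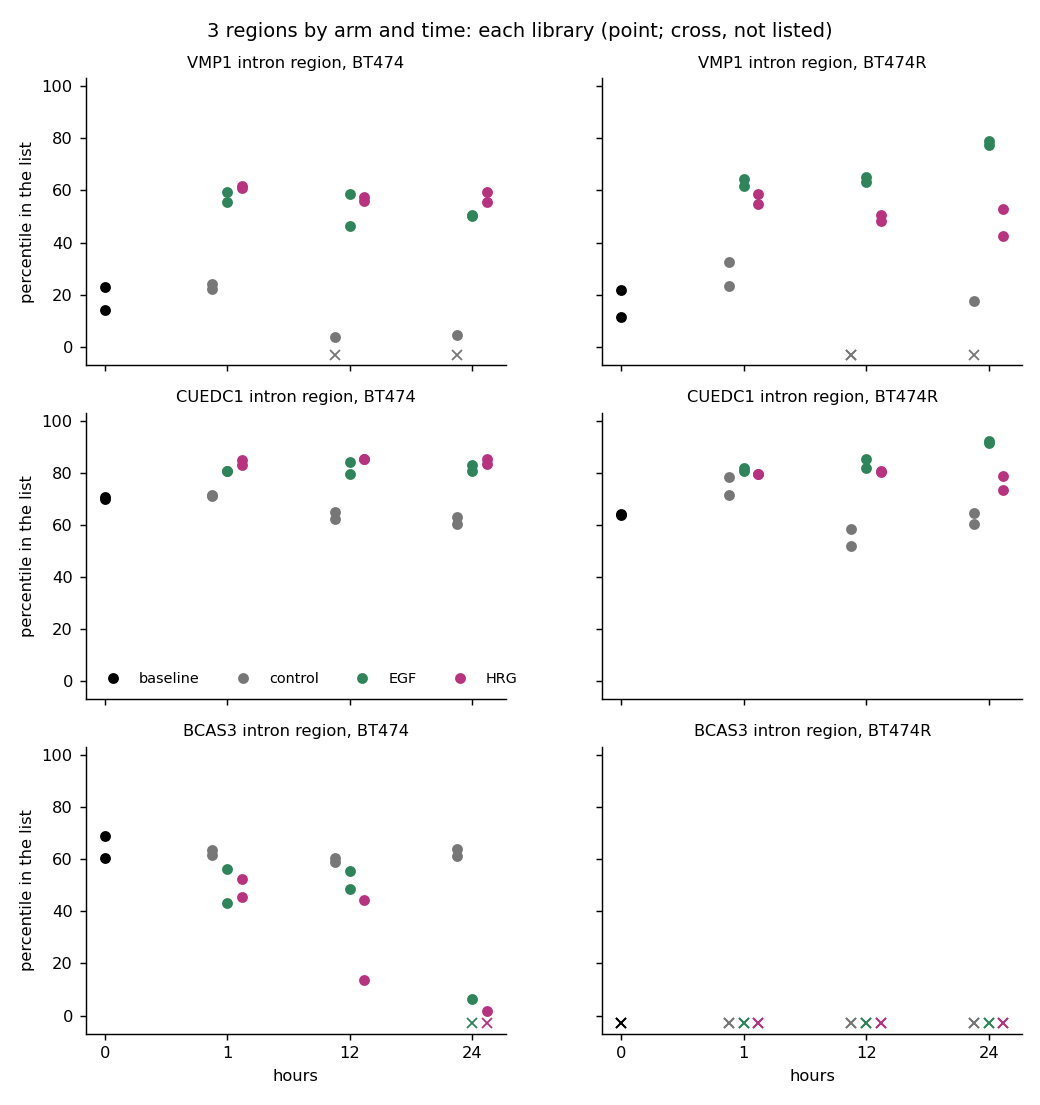
Percentile in the list (vertical) of 3 members by hours (horizontal), with each library a point or, where it did not list the region, a cross, for BT474 (left) and BT474R (right) and by arm. The VMP1 intron region is higher with EGF (green) and HRG (magenta) than in controls (gray) in both lines, the CUEDC1 intron region is higher in BT474 at every time, and the BCAS3 intron region falls with both ligands in BT474 and is absent from BT474R.

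By presence few members were called. EGF gained 7 members and lost none in BT474 (unadjusted Fisher's exact p under 0.05, with 1.15% and 0.0433% of all regions called), HRG gained 4 and lost 1 (1.33% and 0.311%), EGF gained 5 and lost 1 in BT474R (0.349% and 0.0391%), and HRG gained 3 and lost none (0.207% and 0% of regions). After Benjamini-Hochberg adjustment no region of the genome was called in any of these comparisons, in which 6 libraries against 6 allow no exact p under 0.002165. The gained members named here were mostly low peaks. In BT474 an intergenic region (chr17:55606486-55606834) was open in all 6 EGF libraries, at percentiles of 0.2 to 21.2, and in no control. In BT474R a TOM1L1 intron region (chr17:54948367-54948803) was open in all 6 EGF libraries, at 3.4 to 73.5 with the 2 highest values at 24 h, and in no control or baseline library. A GNA13 intron region (chr17:65027336-65027677) was open in all 6 EGF and all 6 HRG libraries of BT474R and in 1 control. None of these 3 regions passed when only peaks with a column 7 value of at least 400 were kept.

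Promoter regions made up 16.1% of the members raised by EGF in BT474 and 27.3% of those lowered, against 15.1% and 43.0% of all regions called. For HRG in BT474 they made up 13.8% and 15.3% (15.5% and 27.7% of all regions called), for EGF in BT474R 8.70% and 13.5% (14.6% and 21.4%), and for HRG in BT474R 5.56% and 28.6% (14.5% and 23.1%). None of the 23 promoters of 17q23 genes was called by rank in any of the 4 comparisons. Among the other lists, EGF in BT474 lowered AKAP1 by 2.26 points, SUPT4H1 by 0.603 points and HLF by 4.65 points and raised VEZF1 by 2.01 points (limma, adjusted p under 0.05). HRG in BT474 lowered SUPT4H1 by 0.860 points and DDX5 by 0.757 points and raised VEZF1 by 1.92 points. In BT474R none of the listed promoters in the segment was called. A second promoter region of MSI2, an RNA-binding protein gene (chr17:57440350-57441540), rose by 27.5 ± 4.39 points with HRG in BT474R (adjusted p = 0.00373). There 1 of the 6 controls, at 77.0, overlapped the HRG libraries of 66.6 to 83.4, and without the 12 h libraries the adjusted p was 0.149.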

How the data were processed

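ATAC-seq was done on 40 libraries. The authors, by their methods, trimmed reads with Trim Galore 0.6.6, mapped them to GRCh38 with BBMap, removed mitochondrial reads and blacklisted regions and called peaks per library with Genrich, with options that the sources used here do not give. The deposited peak lists hold the authors' signal in column 7 (the area of significance of a peak, at least 200 in every list), −log10 p and q values, and a score capped by the peak caller. Only positions, summits and column 7 were used. The lists give no read counts, so the depth is unknown, and the number of peaks listed stands in for it only roughly.

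Peaks were merged at 1 bp overlap, regions in at least 2 lists were kept, and column 7 was turned into a percentile within each list. Where a list had several peaks in a region the highest counted. For single regions the percentile was taken again among the regions open in at least 50% of the libraries, with unlisted regions tied at the bottom, and fitted with limma 3.58.1 (empirical Bayes with a trend). Presence was compared with Fisher's exact test, and values per library with permutation tests, all two-sided. Benjamini-Hochberg adjustment ran over all regions tested, with a threshold of 0.05. Scripts used Python 3.11.15, scipy 1.17.1 and R 4.3.3 and were tested on simulated data.

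The members and gene lists were chosen with earlier results of these data known. Named were the genes of the lists, the 10 members of highest rank and the 3 widest, for the lines the 8 members of smallest p per test and direction, for each ligand the 3, and 2 regions on each side of both edges. The leading gained member of HRG in BT474 is not reported here. Replicate numbers were not used to pair the libraries, except in the setting with a block. Correlations of same-numbered deviations between groups lay between -0.163 and 0.555 for BT474 and between -0.307 and 0.407 for BT474R. Of 45 correlations in each line, 4 and 11 were above 0.1, and the medians were -0.0051 and 0.0034. These values do not exclude pairing in some groups. Leaving out each library and 17 other settings were tried, of which leaving out the 12 h libraries and the stretch from 22 to 27 Mb were added after the data were seen.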

Additional observations from a re-analysis of the deposited data

How the results depend on the processing

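The larger share of the segment in BT474R and its density in both lines kept direction and threshold under every alternative for all regions. The density ratios were lower when the stretch from 22 to 27 Mb, which held no region, was left out. The 16 leading presence calls between the lines also kept both, in 80 values under other settings and in 640 with 1 library left out. These members were picked for the smallest p of the same test, so that leaving out 1 library could not undo their calls. Lists without read counts do not allow a check of depth, and a low peak may be missing from a short list. Causes of the changes below were not tested.

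Mean rank against the rest of the chromosome was the least stable result. In BT474 it became 0.665 without 38 to 41 Mb, 0.0037 on the log2 scale of column 7, 5.68 in promoter regions and 1.89 in distal regions. In BT474R it was 0.425 with peaks trimmed to 400 bp (permutation p = 0.0515), 0.358 for regions in at least 4 lists (p = 0.0881), 0.283 without the 12 h libraries (p = 0.234) and -0.859 for medians. It ran from 0.350 to 0.521 with 1 library left out, with p up to 0.0685 and the lowest value without baseline replicate 2. The line difference was 0.285 in distal regions (permutation p = 0.254). The density ratio was 0.684 and 0.734 in promoter regions of BT474 and BT474R.

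The ligand effects on the whole segment, none of which passed the threshold, changed sign or side as follows. For the rank, HRG in BT474 gave 0.433 with column 7 of at least 400, 0.669 with equally long lists, 0.00633 with trimmed peaks, 0.166 with edges at 55 and 65 Mb, 0.494 in promoter regions and 1.349 for medians. EGF in BT474R gave 1.038 (exact p = 0.0185), 0.864 and 0.0244 in the first 3 of these settings, 1.592 in promoter regions, -0.813 in distal regions (exact p = 0.0370) and 1.137 for medians. EGF in BT474 gave -0.520 in promoter regions and 2.257 for medians (exact p = 0.0278), and HRG in BT474R 0.235 in promoter regions. For the share, EGF in BT474 gave 0.0985, 0.0346 and 0.0968 in the same first 3 settings and 0.115 in promoter regions. HRG in BT474 gave 0.0773 with trimmed peaks and 0.254 without the 12 h libraries, and HRG in BT474R 0.323 with trimmed peaks (exact p = 0.0278) and -0.107 in promoter regions, where EGF in BT474R gave -0.240. With 1 library left out, the rank effects ran from -0.309 to 0.271 (HRG, BT474), from -0.348 to 0.131 (EGF, BT474R) and from -0.972 to -0.263 (HRG, BT474R, exact p = 0.0463 without HRG 12 h replicate 2). The share effects ran from -0.219 to 0.0879 (EGF, BT474), from -0.228 to 0.0581 (HRG, BT474) and from 0.114 to 0.355 (HRG, BT474R, exact p = 0.00926 without HRG 24 h replicate 1).

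Presence calls between the lines came to 51 higher with column 7 of at least 400 and to 46 lower with equally long lists and 51 lower without the 12 h libraries. For the ligands, column 7 of at least 400 gave 9 gained with HRG in BT474, 3 gained and 0 lost with EGF in BT474R and 1 gained with HRG in BT474R. Equally long lists gave losses of 4 and 2 with EGF and HRG in BT474 and of 2 and 4 in BT474R, and trimmed peaks 2 lost with HRG in BT474. Without the 12 h libraries EGF gained 4 and HRG lost 0 in BT474, and in BT474R EGF gained 3 and lost 0 and HRG gained 1. With the replicate number as a block, 2 were gained with each ligand and 0 lost with HRG in BT474, and 2 were gained and 0 lost with EGF and 0 gained with HRG in BT474R. The block moved no other count over 1.5 times and changed no direction or threshold result of the segment as a whole. With 1 library left out, gains ran from 7 to 11 (EGF) and 4 to 9 (HRG) in BT474 and from 5 to 8 and 3 to 9 in BT474R, and losses from 0 to 1, 1 to 4, 1 to 4 and 0 to 0. Libraries that moved a count over 1.5 times were, in BT474, control 1 h replicate 1 (11 and 8 gained with EGF and HRG, 2 lost with HRG), HRG 1 h replicates 1 and 2 (9 and 7 gained, 3 and 4 lost), HRG 12 h replicate 1 (7 gained, 2 lost), HRG 24 h replicate 1 (7 gained), control 12 h replicate 1 (2 lost), and EGF 1 h replicate 1 and EGF 12 h replicate 2 (1 lost). In BT474R they were control 1 h replicates 1 and 2 (9 gained with HRG, and without the first 8 with EGF), HRG 12 h replicate 2 (5 gained) and EGF 1 h replicates 1 and 2 (4 lost).

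Rank calls between the lines came to 83 lower with column 7 of at least 400, 81 lower with equally long lists and 203 lower on the plain percentile with unlisted regions at 0. Regions open in all libraries gave 137 higher and 81 lower, and the log2 scale on these 97 higher. Lowered members with EGF in BT474 numbered 11 on the plain percentile and 18 on the log2 scale, and with HRG in BT474 38 on the log2 scale and 30 without the 12 h libraries. For EGF in BT474R the raised and lowered members numbered 42 and 22 with column 7 of at least 400, 44 and 21 for regions open in all libraries, 38 and 15 on the log2 scale and 43 and 27 without the 12 h libraries, and the lowered 32 with equally long lists and 31 on the plain percentile. For HRG in BT474R they numbered 9 and 5 with column 7 of at least 400 and also for regions open in all libraries, 52 and 2 on the plain percentile, 29 and 0 on the log2 scale and 1 and 0 without the 12 h libraries, and ran from 10 to 25 and from 5 to 25 with 1 library left out. The lowered count moved over 1.5 times without either library of baseline (25), of control or HRG at 1 and 12 h, or of EGF at 24 h, without control 24 h replicate 1 and without HRG 24 h replicate 2 (5 to 9). The raised count did so without replicate 2 of control 1 h, HRG 1 h or HRG 12 h and without control 24 h replicate 1 (10 to 11).

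Of single promoter differences between the lines, MSI2 became -0.691 and RGS9 -0.451 on the plain percentile. On the log2 scale BRIP1 became -0.148, DHX40 -0.0390, HLF -0.125, LPO -0.149, MSI2 -0.182, PCTP -0.0576, RAD51C -0.0604, RGS9 -0.159, RNFT1 -0.0164 and SUPT4H1 -0.0538. The median of all regions on that scale was -0.183. With 1 library left out 27 of 1640 values lost the call, all for HLF and MSI2. Of 203 ligand rank differences of single members under other settings 196 kept their side, and the other 7 did not pass the threshold. Of 124 ligand presence differences 38 did not.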
